A study of Saccharomyces cerevisiae with 2 samples.

Results

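The genes described here are 42 genes of pheromone response and mating in budding yeast, from the pheromone receptors and the kinase cascade to the a-factor genes, the agglutinins and the genes of cell and nuclear fusion. They were chosen by name as the probe sets annotated to these symbols, and all 42 were found, each read by 1 probe set without a suffix letter, among 5449 genes of the species. Total RNA was read on biotin-labelled Affymetrix arrays from 2 BY4741-derived strains of mating type a, grown in YPD and kept at 37 °C for 60 min. Both strains carry his3delta1, leu2delta0, met15delta0 and ura3delta0 and the acs2::HygMX deletion of the chromosomal acetyl-CoA synthetase gene. One strain (YHT652) carries the temperature-sensitive allele acs2-Ts1 on plasmid pHT215, and the other (YHT651) carries wild-type ACS2 on plasmid pHT112-1, both of them centromeric URA3 plasmids, per the genotype labels. The titles of both samples call them wild type, so the strains are told apart by genotype.

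In cells of mating type a, the alpha-factor receptor Ste2 releases the beta-gamma subunits of a G protein when pheromone binds. These act through the scaffold Ste5 and the kinases Ste20, Ste11, Ste7 and Fus3 on the transcription factor Ste12, which raises genes for arrest, agglutination and fusion. The labels name no pheromone treatment, so the values below are read as levels in heat-treated cells. Whether the cells of either strain were still growing under the heat treatment was not tested. Cells of type a also make their own pheromone, a-factor, a farnesylated peptide that is cut, methylated and exported before it reaches a partner.

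Each strain is 1 deposited sample, the authors' mean of 2 arrays, so no difference below has a replicate check and none was tested. Ratios are log2 of the acs2-Ts1 intensity over the ACS2 intensity on the authors' control-based scale. On that scale most genes of the array were lower in acs2-Ts1, with an all-gene median log2 ratio of -1.12, and the ratio also varied with signal level. Each group is therefore also given relative to the all-gene median and with a lowess trend of ratio on level removed. As a yardstick, log2 ratios from different probe sets of 1 gene had a pooled SD of 0.43 over 47 genes. For 18 bright hybridization controls the median ratio was 0.0011 and the SD 0.12. Since the authors normalized on controls, that step may itself have set these control ratios near 0. They are therefore no independent check of the scale or of the precision. The background limit, the 95th percentile of probe sets for genes outside the species, was 46.3 in acs2-Ts1 and 49.1 in ACS2.

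All 42 mating genes read lower in acs2-Ts1 as deposited, while relative to the all-gene median 25 were lower and 17 higher, and with the level trend removed 22 were lower and 20 higher. Among all genes, 86.4% read lower as deposited. At least 2-fold lower were 30 of the 42 (71.4%), against 55.9% of all genes. None (0 of 42) was at least 2-fold higher, against 3.67% of all genes. At 1.5-fold the share of lower genes was 35 of 42 (83.3%) beside 72.0% of all genes. At 3-fold it was 11 of 42 (26.2%) beside 25.8% of all genes, and at 4-fold 3 of 42 (7.14%) beside 9.51%. The median log2 ratio was -1.22 for the mating genes and -1.12 for all genes. With the level trend removed the medians were -0.02 for the mating genes and -0.01 for all genes. The 25th and 75th percentiles were -1.65 and -0.82 for the mating genes and -1.60 and -0.48 for all genes. Mating genes close to the 2-fold limit were FIG2 at -1.004 and STE14 at -1.01 inside it, and MFA1 at -0.94 outside it.

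**Figure D1:**
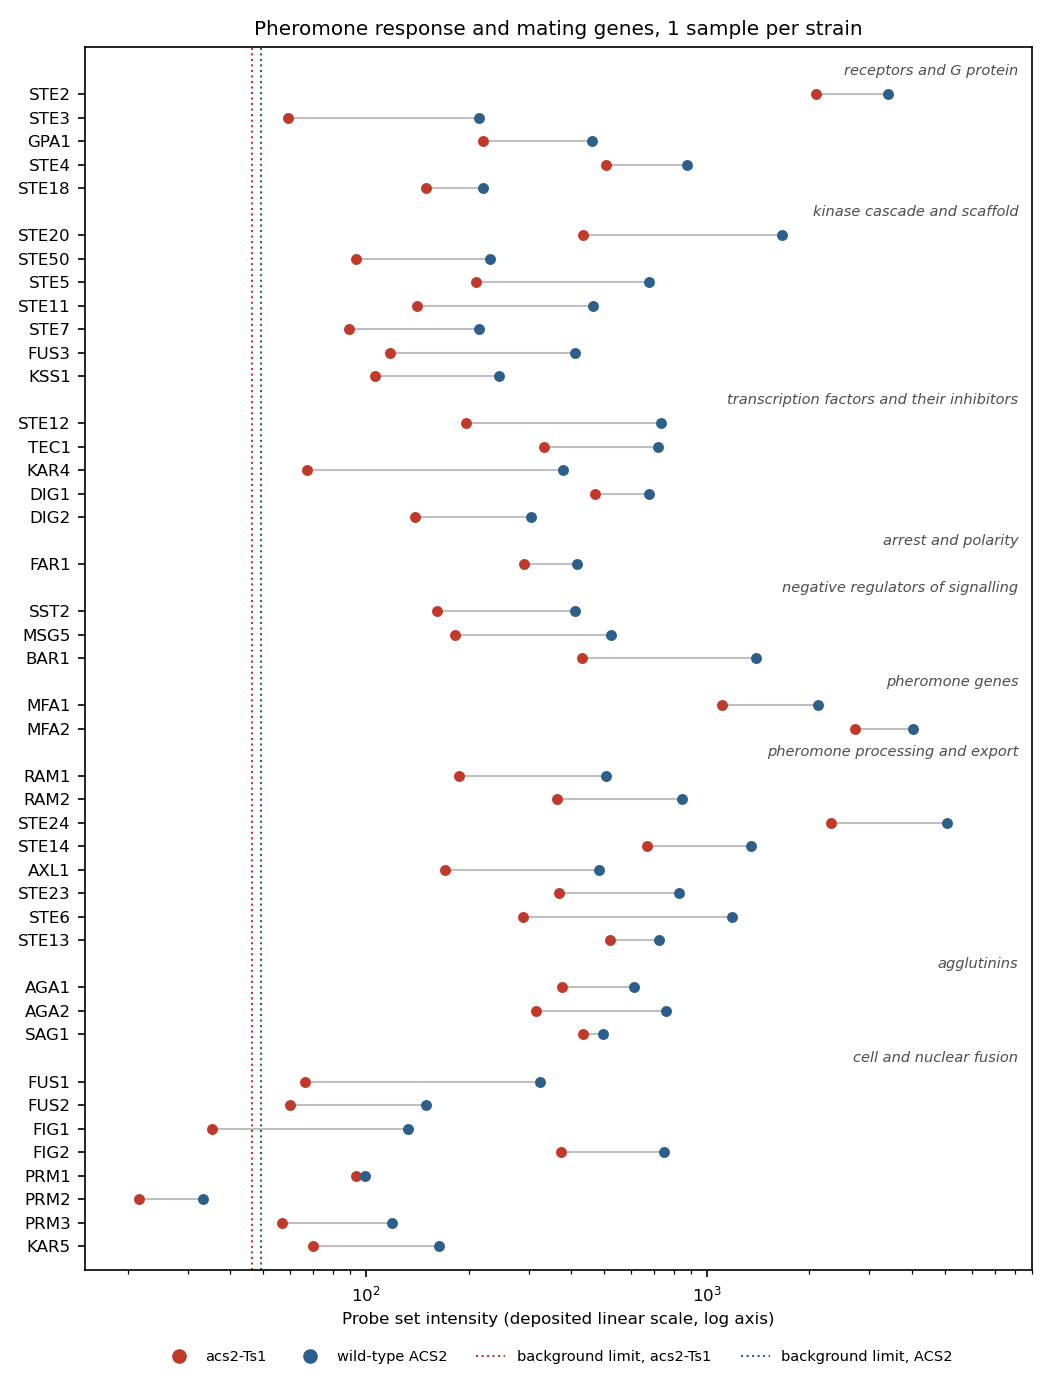
Probe set intensity (log axis) of the 42 mating genes in acs2-Ts1 (red) and wild-type ACS2 (blue), 1 sample each, grouped by role, with dotted lines at the background limits of 46.3 and 49.1. The red point lies left of the blue one for all 42 genes on the deposited scale, a direction that 17 genes lose relative to the all-gene median; in PRM1 the points nearly touch, and PRM2 lies below both limits.

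The receptor and G protein genes were among the least lowered groups, with a median of -0.78 as deposited, which turns to 0.34 relative to the all-gene median and to 0.28 with the trend removed. STE2 (YFL026W), the alpha-factor receptor of a cells, read 2089.9 in acs2-Ts1 and 3398 in ACS2, a log2 ratio of -0.70. STE4, for the G protein beta subunit, read 507 in acs2-Ts1 and 873 in ACS2. STE18, for the gamma subunit, read 149.5 in acs2-Ts1 and 221 in ACS2, so that the genes of both subunits were less than 2-fold lower. GPA1, for the alpha subunit that holds them inactive, was 2.10-fold lower, at 219.8 in acs2-Ts1 and 461 in ACS2, and stood 0.06 above the all-gene median.

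STE3 and SAG1, the a-factor receptor and the alpha-agglutinin, belong to cells of mating type alpha and were included as genes expected to be silent here. Both read above the background limit in both strains, though STE3 in acs2-Ts1 read under the value of the deleted LEU2 gene given below. STE3 read 59.0 in acs2-Ts1 and 214 in ACS2, a log2 ratio of -1.86 as deposited, -0.74 relative to the all-gene median and -0.42 with the trend removed. SAG1 read 433 in acs2-Ts1 and 496 in ACS2, both far above the limits. Genes listed here as expressed in a cells were STE2, STE6, BAR1, MFA1, MFA2, AGA2, AXL1 and ASG7. Of these, 8 of 8 read above the limit in both strains, as did 4976 of all 5449 genes. The median ratio of these 8 was -1.39, which is -0.26 relative to the all-gene median and -0.09 with the trend removed. The alpha-factor genes MFALPHA1 and MFALPHA2 were not analysed here. Of the genes deleted or disrupted in both strains, 2 were measured as references, and they differed widely. HIS3, with the his3delta1 allele, read 882 in acs2-Ts1 and 1650 in ACS2, a log2 ratio of -0.90. How much of HIS3 its probe set still meets was not tested. LEU2, whose gene is deleted in both strains, read 77.5 in acs2-Ts1 and 68.0 in ACS2. The probe set of a deleted gene thus read above the limit in both strains, and 8 mating genes read under the LEU2 value in acs2-Ts1: STE3, KAR4, FUS1, FUS2, FIG1, PRM2, PRM3 and KAR5. Of these 8, PRM2 alone also read under the LEU2 value in ACS2. The part of probe background in their ratios was not tested. Among the other 34 mating genes, 23 were at least 2-fold lower, against 55.9% of all genes.

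All 7 genes of the kinase cascade and its scaffold were at least 2-fold lower, against 55.9% of all genes. Their group median was -1.69, which is -0.56 relative to the all-gene median and -0.30 with the trend removed. All 7 lay below the all-gene median, but only 4 of the 7 stayed below 0 once the trend was removed. STE20 (YHL007C), the p21-activated kinase at the head of the cascade, read 432 in acs2-Ts1 and 1665 in ACS2, 3.85-fold lower, with -0.88 left after trend removal. FUS3, the mitogen-activated protein kinase of mating, read 117 in acs2-Ts1 and 411 in ACS2 and was 3.50-fold lower. STE11, the kinase that activates Ste7, read 141 in acs2-Ts1 and 464 in ACS2. STE5, the scaffold that holds the kinases, read 210.2 in acs2-Ts1 and 677 in ACS2. These 4 genes formed the lower part of the group, between -1.95 and -1.69. STE50, the adaptor of Ste11, STE7, which activates Fus3 and Kss1, and KSS1, the kinase shared with filamentous growth, lay between -1.31 and -1.21, close to the bulk of all genes. They read 93.2, 89.0 and 106 in acs2-Ts1 and 232, 215 and 246 in ACS2, in that order. FUS3 was lower than KSS1 by 0.59 on the log2 scale, no more than the root mean square difference of 0.60 between 2 probe sets of 1 gene.

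The transcription factor genes and those of their inhibitors spread widely, over -2.49 to -0.52, around a median of -1.13 as deposited, which is -0.01 relative to the all-gene median and turns to 0.10 with the trend removed. KAR4 (YCL055W), which acts with Ste12 on genes of nuclear fusion, had the lowest ratio of the 42, at 67.0 in acs2-Ts1 and 377 in ACS2. It was 5.63-fold lower, and 1.76% of all genes had a lower ratio. STE12 (YHR084W) itself read 196 in acs2-Ts1 and 736 in ACS2, 3.75-fold lower, with 11.8% of all genes lower. TEC1, the partner of Ste12 at filamentous growth genes, read 334 in acs2-Ts1 and 719 in ACS2, at the all-gene median (0.02 above it). The inhibitors of Ste12 were less lowered than STE12, with DIG1 at 470.0 in acs2-Ts1 and 675 in ACS2 and DIG2 at 139 in acs2-Ts1 and 305 in ACS2. The ratio of DIG1 exceeded that of DIG2 by 0.61, close to the 0.60 found between probe sets of 1 gene. FAR1, which inhibits the cyclin-dependent kinase and orients growth, read 291 in acs2-Ts1 and 416 in ACS2, a ratio of -0.52 that stood 0.61 above the all-gene median and 0.80 above the trend.

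**Figure D2:**
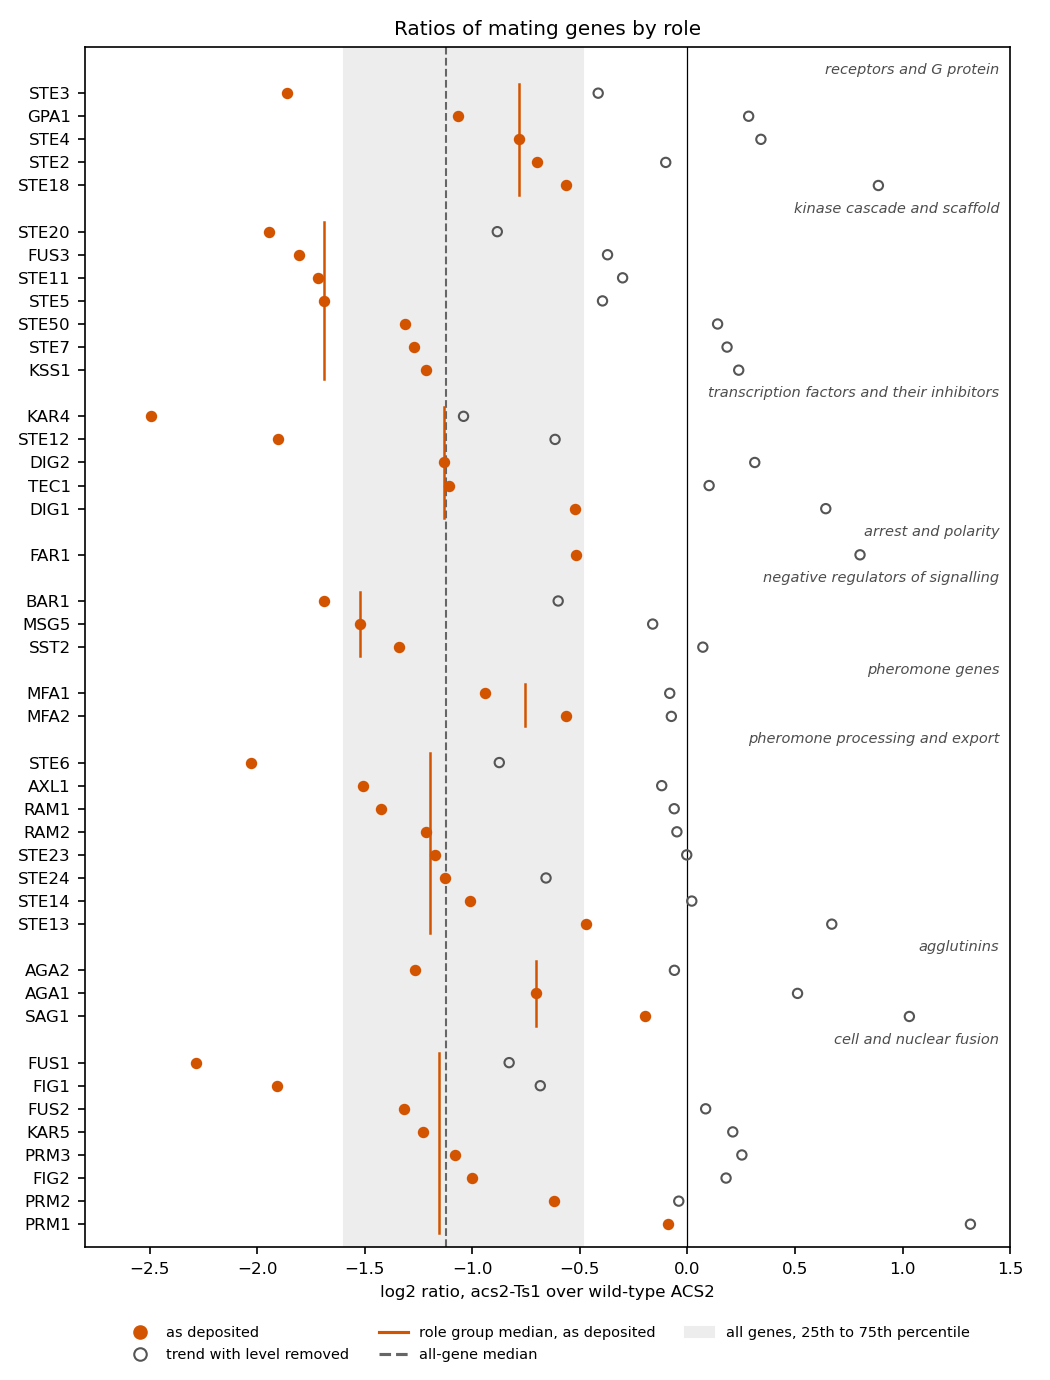
Log2 ratio (acs2-Ts1 over ACS2) for each of the 42 mating genes by role, as deposited (filled) and with the trend with level removed (open); orange bars are role group medians, and the dashed line and grey band are the median (-1.12) and the 25th to 75th percentiles of all genes. The 7 kinase cascade genes lie left of the dashed line, while with the trend removed 22 of the 42 genes lie below 0 and 20 above it.

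The 3 genes that dampen signalling were each at least 2-fold lower, against 55.9% of all genes. Their group median was -1.52, which is -0.40 relative to the all-gene median and -0.16 with the trend removed. BAR1, a secreted protease of a cells that degrades alpha-factor, read 431 in acs2-Ts1 and 1391 in ACS2, 3.22-fold lower. MSG5, a phosphatase acting on Fus3, read 182 in acs2-Ts1 and 523 in ACS2. SST2, which speeds the shut-off of the G protein, read 161 in acs2-Ts1 and 409 in ACS2, a ratio of -1.34 that turned to 0.07 with the trend removed.

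The a-factor genes were less than 2-fold lower. MFA1 read 1105 in acs2-Ts1 and 2123 in ACS2, a log2 ratio of -0.94. MFA2 read 2725 in acs2-Ts1 and 4027 in ACS2, a ratio of -0.56. Both stood above the all-gene median, by 0.18 and 0.56, but both lay at the trend for their level, at -0.08 each.

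Of the 8 genes that process or export pheromone, 7 were at least 2-fold lower, against 55.9% of all genes. The median of the 8 was -1.20, which is -0.07 relative to the all-gene median and -0.06 with the trend removed. STE6 (YKL209C), the transporter that exports a-factor, had the lowest ratio of the group, at 289.5 in acs2-Ts1 and 1182 in ACS2. It was 4.08-fold lower, 8.70% of all genes had a lower ratio, and -0.88 remained with the trend removed. The farnesyltransferase subunit genes RAM1 and RAM2 had similar ratios of -1.42 and -1.22, at 188 and 364 in acs2-Ts1 and 505 and 847 in ACS2. AXL1 and STE23, for related proteases of a-factor maturation, had ratios of -1.51 and -1.17. STE14, the carboxyl methyltransferase, read 669 in acs2-Ts1 and 1347 in ACS2. STE24, a membrane protease, read 2322 in acs2-Ts1 and 5076 in ACS2, at the all-gene median but at -0.66 with the trend removed. STE13, a peptidase that matures alpha-factor and not a-factor, was the least lowered of the group, at 520.0 in acs2-Ts1 and 722 in ACS2, a ratio of -0.47.

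The 3 agglutinin genes, SAG1 of alpha cells among them, had a median of -0.70 as deposited. It turns to 0.42 relative to the all-gene median and to 0.51 with the trend removed. This median is the value of AGA1. On these corrected scales SAG1 lay above it, at 0.93 and 1.03, and AGA2 below it, at -0.14 and -0.06. AGA2, the adhesion subunit of a-agglutinin, read 316 in acs2-Ts1 and 761 in ACS2, 2.41-fold lower. AGA1, its cell wall anchor, read 377 in acs2-Ts1 and 613 in ACS2, 1.63-fold lower. The ratios of the subunits differed by 0.57, less than the 0.60 between probe sets of 1 gene.

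Genes of cell and nuclear fusion were uneven, between -2.28 and -0.09, with a median of -1.15 as deposited, which is -0.03 relative to the all-gene median and turns to 0.13 with the trend removed. FUS1 (YCL027W), a membrane protein of cell fusion that is strongly induced by pheromone, read 66.4 in acs2-Ts1 and 323 in ACS2. It was 4.87-fold lower, and 4.09% of all genes had a lower ratio. FUS2, which acts at the same step, read 60.0 in acs2-Ts1 and 149.6 in ACS2. The ratio of FUS1 minus that of FUS2 was -0.97, larger than the root mean square difference of 0.60 between probe sets of 1 gene, which is no limit. In acs2-Ts1 both genes read under the 77.5 of the deleted LEU2 gene, so their contrast rests on the ACS2 values. FIG1, needed for calcium uptake during mating, read 35.3 in acs2-Ts1, under the background limit, and 133 in ACS2, at least 2.86-fold lower when set against that limit. FIG2, a cell wall protein, read 373 in acs2-Ts1 and 747 in ACS2. PRM1, which helps the plasma membranes merge, had the ratio nearest to 0 of all 42, at 93.2 in acs2-Ts1 and 99.4 in ACS2. For comparison, the deleted LEU2 gene read 77.5 in acs2-Ts1 and 68.0 in ACS2. PRM2 read 21.6 in acs2-Ts1 and 33.2 in ACS2, below background in both. PRM3 and KAR5, which act in the fusion of nuclei, read 56.5 and 70.0 in acs2-Ts1 and 119.5 and 164 in ACS2.

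Some genes left the bulk in the same direction on both corrected scales. By a rule set with the values known, 7 of the 42 (16.7%) lay at least 0.43 below both the all-gene median and the level trend, against 19.0% of all genes: KAR4, FUS1, STE6, STE20, FIG1, STE12 and BAR1. Of these, KAR4, FUS1 and FIG1 are among the genes that read under the LEU2 value in acs2-Ts1. On the other side, 6 of 42 (14.3%) lay at least that far above both, against 22.1% of all genes: STE18, DIG1, FAR1, STE13, SAG1 and PRM1. Neither share exceeded that of all genes. The SD of the log2 ratio was 0.55 over the mating genes and 0.92 over all genes.

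**Figure D3:**
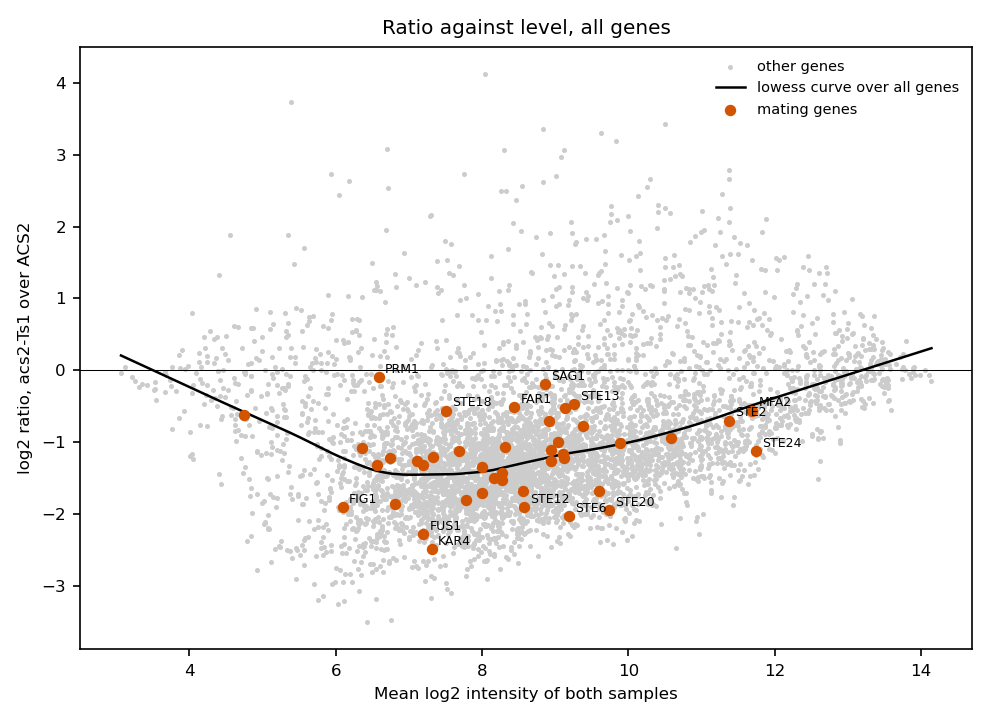
Log2 ratio (acs2-Ts1 over ACS2) against the mean log2 intensity of both samples for the mating genes (orange) and all other genes (grey), with the lowess curve over all 5449 genes. The mating genes lie on both sides of the curve, 22 below and 20 above, with KAR4, FUS1, STE6 and STE20 well below it and PRM1 and SAG1 well above.

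Position in the genome was looked at through gene order alone. No mating gene lay next to another among the measured genes (0 of 42). The 84 measured genes that flank them had a median ratio of -1.21. Of these 84, 60 were at least 2-fold lower, beside 30 of the 42 mating genes and 55.9% of all genes. Against the mean of their flanking genes, 17 of the 42 mating genes were lower and 25 were higher.

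Other genes of the mating pathway gave a similar median with a wider spread. Of 45 measured genes listed for mating, polarity or nuclear fusion, 24 (53.3%) passed 2-fold downward and 2 (4.44%) upward, close to the 55.9% and 3.67% of all genes. Their median of -1.09 turns to 0.04 relative to the all-gene median and to 0.09 with the trend removed. The lowest was KEX1, a carboxypeptidase of alpha-factor maturation, at 59.5 in acs2-Ts1 and 442 in ACS2. Also at least 4-fold lower were PRM9, FIG4, the polarity scaffold gene BEM1, and VIK1, for a partner of the kinesin Kar3, between 57.3 (VIK1) and 120.1 (BEM1) in acs2-Ts1 and between 230.4 (VIK1) and 493 (BEM1) in ACS2. KAR1, of the spindle pole body, read 35.3 in acs2-Ts1, under the limit, and 162 in ACS2. In acs2-Ts1, KEX1, PRM9, VIK1 and KAR1 all read under the 77.5 of the deleted LEU2 gene, while FIG4 and BEM1 read above it. Of the 8 genes that read higher as deposited, those past 2-fold were PRM4, at 787 in acs2-Ts1 and 257 in ACS2, and CHS1, a chitin synthase gene, at 2649 in acs2-Ts1 and 1048 in ACS2. Both stayed more than 2 above the all-gene median on the log2 scale, at 2.74 and 2.46. The haploid marker genes, 7 of which are among the 42, were above the limit in 9 of 9 cases in both strains. So were 4976 of all 5449 genes. The median of the haploid markers was -1.07 as deposited, which turns to 0.06 relative to the all-gene median.

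The 6 genes of filamentous growth, which shares Ste20, Ste11, Ste7 and Ste12 with mating, had a median of -0.31 as deposited, which turns to 0.82 relative to the all-gene median and to 0.90 with the trend removed. SHO1, a membrane sensor, read 421 in acs2-Ts1 and 1195 in ACS2. It alone of the 6 was at least 2-fold lower, against 55.9% of all genes. MGA1, a transcription factor gene, was 3.11-fold higher, at 215 in acs2-Ts1 and 69.2 in ACS2. Its ACS2 value lay close to the 68.0 of the deleted LEU2 gene in ACS2. PGU1, at 52.9 in acs2-Ts1 and 66.7 in ACS2, read under LEU2 in both strains. Leaving out genes under the 25th percentile of level kept 3 of the 6 genes, with 0 at least 2-fold higher and a median of -0.36 as deposited. FLO11, a cell surface adhesin gene whose promoter is bound by Ste12 and Tec1 in filamentous growth, read 162 in acs2-Ts1 and 197 in ACS2.

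**Figure D4:**
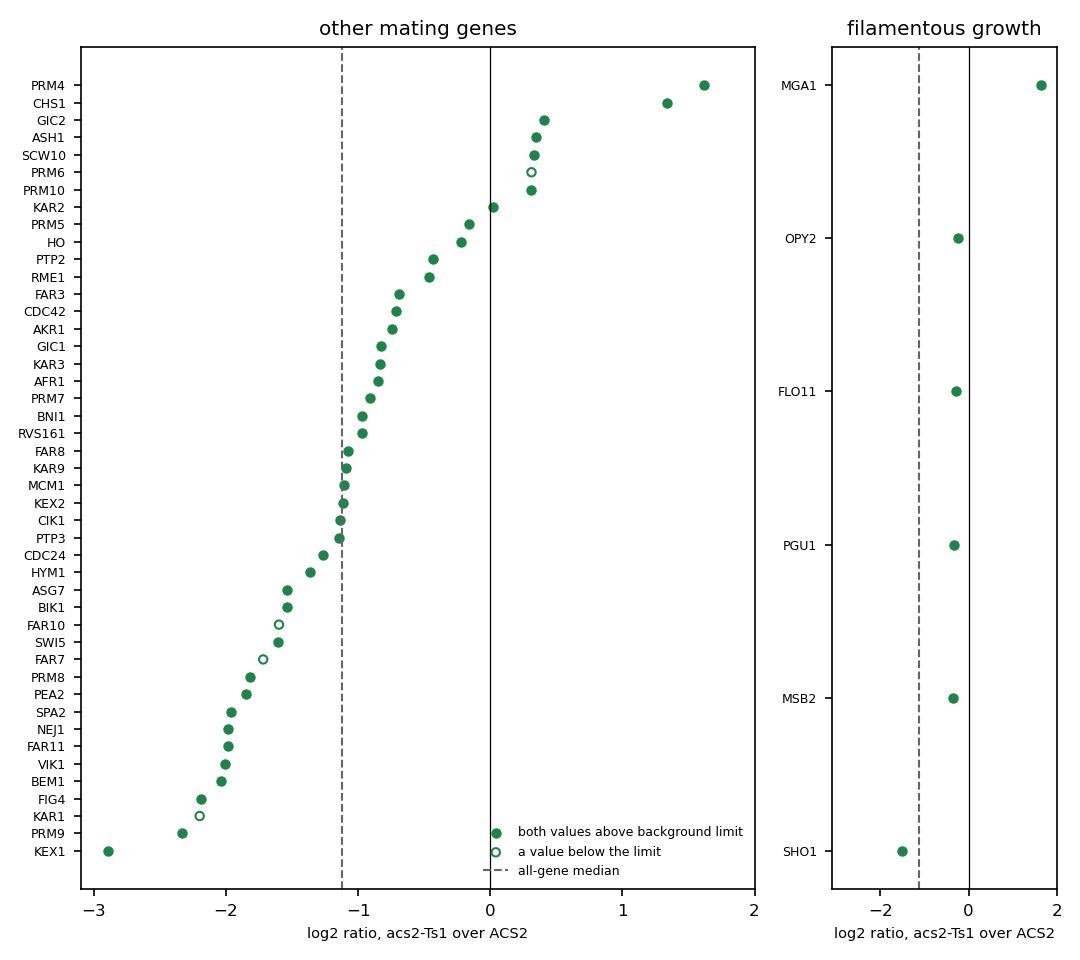
Log2 ratio (acs2-Ts1 over ACS2) for 45 other mating genes (left) and 6 filamentous growth genes (right), sorted by ratio, with open circles where either value lies under the background limit and a dashed line at the all-gene median of -1.12. PRM4, CHS1 and MGA1 lie beyond 1 on the right, and KEX1 is the lowest; on the scale relative to the all-gene median, 25 of the 45 lie above 0.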

How the data were processed

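The authors background-corrected 4 Affymetrix arrays with RMA, took 1 mean per strain over 2 arrays and then fitted a lowess normalization on controls, per the labels and design text. The deposited values are intensities on a linear scale, kept here as deposited. Which controls served, and versions, were not stated there. Of 10928 probe sets, 5498 matched a gene of the R64 RefSeq table through the platform annotation. Each gene was read by its brightest unsuffixed probe set where it had one, leaving 5449 genes, and 1746 probe sets of genes outside the species gave the background limit. The log2 ratio of acs2-Ts1 over ACS2 was taken without a pseudocount. With 1 sample per group there is no test, and the number of arrays limits the precision. The level trend was a lowess curve of span 0.30 (statsmodels 0.14.6, Python 3.11.15), tested on simulated data. The members, roles, lists and yardsticks were chosen with earlier results of these data known. All members are named; of the other lists, chiefly genes past 2-fold. The planned promoter motif search was not run, since promoter sequences were not used here. Alternatives were other centrings, trend removal, an offset of 32, other probe set rules, level and background filters, and thresholds of 1.5 and 3.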

Additional observations from a re-analysis of the deposited data

How the results depend on the processing

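The direction of 17 of the 42 mating genes changed when centred on the all-gene median, and that of 20 with the level trend removed. These sets overlap only in part, so more than 20 genes depend on the scale. STE2, MFA1, MFA2 and PRM2 changed only when centred. STE50, STE7, KSS1, DIG2, SST2, FUS2 and KAR5 changed only with the trend removed. Centred on the all-gene median, 2 of 42 mating genes passed 2-fold downward and 1 upward, beside 6.61% and 16.4% of all genes, and their median was -0.092. The role group medians then were 0.34 (receptors and G protein), -0.56 (kinase cascade), -0.0061 (transcription factors), -0.40 (negative regulators), 0.37 (a-factor genes), -0.071 (processing and export), 0.42 (agglutinins) and -0.031 (fusion). Of the 17 mating genes that then read above 0, those at least 2-fold lower as deposited were GPA1 (0.057), TEC1 (0.017), STE14 (0.11), FIG2 (0.12) and PRM3 (0.043). The medians of the other mating genes (0.036), the alpha markers (0.096), the haploid markers (0.057) and the filamentous growth genes (0.82) also turned positive. With the level trend removed, 1 gene passed 2-fold downward and 2 upward, beside 4.06% and 12.3% of all genes, the median was -0.022, and the group medians in the same order were 0.28, -0.30, 0.10, -0.16, -0.079, -0.055, 0.51 and 0.13. Of the 20 mating genes that then read above 0, those at least 2-fold lower as deposited were GPA1 (0.28), STE50 (0.14), STE7 (0.18), KSS1 (0.24), TEC1 (0.10), DIG2 (0.31), SST2 (0.071), STE14 (0.020), FUS2 (0.085), FIG2 (0.18), PRM3 (0.25) and KAR5 (0.21), and the same list medians became 0.091, 0.31, 0.28 and 0.90. At a 3-fold threshold 11 mating genes were lower (25.8% of all genes). Leaving out genes under the 25th percentile of level kept 31 of 42 and 2 of 8 fusion genes, whose median became -1.64. The number of mating genes at least 2-fold lower was 28 when centred on bright controls (54.8% of all genes) and 23 with 32 added to both values (50.0%), and 35 were at least 1.5-fold lower (72.0%). Added after seeing the data were background subtraction, with 29 of 40 genes at least 2-fold lower (57.9% of all genes) and a median of -1.31, and leaving out STE3 and SAG1, with 29 of 40 (55.9%). No paired analysis was possible because each group is 1 sample. The authors' control normalization itself was not tested. Centring on bright controls, whose median ratio was -0.02 as deposited, could hardly move the counts and does not test it.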
